A study of Mus musculus with 4 samples.

Results

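Cdkn1a, Ccng1, Mdm2, Btg2 and Ei24, a set of 5 genes that are activated by the tumour suppressor protein p53 after DNA damage, were followed in the lungs of bleomycin-treated mice. They were listed by gene symbol, and all 5 were found among the 8384 genes that could be tested and the 13410 genes named on the array. Each was measured by 1 probe, which had a value in all 4 mice. Cdkn1a, Ccng1 and Ei24 lay below 0 in every mouse and Btg2 above 0 in every mouse, while Mdm2 lay below 0 in mice 1 and 2 and above it in mice 3 and 4.

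The 4 arrays each compared amplified lung RNA of 1 bleomycin-treated mouse of the inbred strain A/J with 1 shared pool of amplified lung RNA from control mice of that strain, on a 2-colour array of 17280 spots. Bleomycin is a drug that breaks DNA and is used to injure the lung. No source used here states the dose, the route, the time after treatment, the age of the mice or how many mice were pooled. The pool is 1 control sample, so the p-values measure only the spread between the 4 treated mice, and how control mice vary is unknown.

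A value is the log ratio of the 2 channels, read as log2, after the median of each array was set to 0. Neither the order of the ratio nor the base of the logarithm is stated. The titles name the treated mouse first, but this does not settle which RNA is on top, so genes are described by their side of 0. If the pool is on top, every sign turns and every size and p is kept. In lung tissue, fewer cells of a type and less RNA per cell cannot be told apart.

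In undamaged cells p53 is kept scarce by Mdm2, a ubiquitin ligase that marks it for destruction. DNA breaks activate the kinases Atm and Chek2, p53 escapes Mdm2, and it then binds paired copies of a short DNA element near its target genes. Cdkn1a encodes p21, an inhibitor of the cyclin-dependent kinases that halts the cell cycle. Ccng1 encodes cyclin G1, which brings the phosphatase PP2A to Mdm2. Mdm2 is itself a target, which closes a feedback loop. Btg2 encodes an antiproliferative protein that binds the Ccr4-Not deadenylase, and it is also an immediate early gene of growth factor signalling. Ei24, also called Pig8, encodes a membrane protein of the endoplasmic reticulum that takes part in cell death and autophagy.

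The bases upstream of the 5 genes are shown because p53 acts through its element, and the members can be compared by it. The sequences are RefSeq's, of build GRCm38.p6, and cover the 250 bases before an annotated start, or 227 for Ccng1, where bases inside the annotated gene were left out. The windows lie at chr17:29090729-29090978 (plus strand) for Cdkn1a, chr11:40755310-40755536 (minus strand) for Ccng1, chr10:117710759-117711008 (minus strand) for Mdm2, chr9:36797335-36797584 (minus strand) for Ei24 and chr1:134079156-134079405 (minus strand) for Btg2. Each is written 5′ to 3′ on the strand of the gene. Capitals mark the matches to the p53 half-site consensus of 10 bases, which reads the same on both strands. For Cdkn1a and Ccng1 capitals also mark the neighbouring half-site that completes a near match of 20 bases.
Cdkn1a: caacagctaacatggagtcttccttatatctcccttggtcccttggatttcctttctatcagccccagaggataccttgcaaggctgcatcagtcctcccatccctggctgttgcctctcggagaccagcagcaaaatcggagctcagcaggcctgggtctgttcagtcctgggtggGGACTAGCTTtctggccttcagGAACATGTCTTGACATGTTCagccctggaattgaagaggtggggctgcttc
Ccng1: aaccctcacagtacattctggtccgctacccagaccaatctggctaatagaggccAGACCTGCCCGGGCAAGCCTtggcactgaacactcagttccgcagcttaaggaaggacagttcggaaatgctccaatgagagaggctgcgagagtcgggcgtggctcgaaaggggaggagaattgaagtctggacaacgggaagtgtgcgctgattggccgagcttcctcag
Mdm2: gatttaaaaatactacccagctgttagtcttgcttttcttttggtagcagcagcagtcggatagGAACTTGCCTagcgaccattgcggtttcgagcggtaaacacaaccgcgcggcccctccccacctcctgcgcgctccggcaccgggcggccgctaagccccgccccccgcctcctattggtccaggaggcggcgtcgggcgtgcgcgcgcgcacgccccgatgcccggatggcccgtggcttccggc
Ei24: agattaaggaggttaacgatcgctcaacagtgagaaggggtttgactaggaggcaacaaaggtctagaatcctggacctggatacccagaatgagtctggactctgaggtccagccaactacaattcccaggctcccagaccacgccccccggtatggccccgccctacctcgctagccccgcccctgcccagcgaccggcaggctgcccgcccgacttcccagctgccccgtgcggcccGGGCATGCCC
Btg2: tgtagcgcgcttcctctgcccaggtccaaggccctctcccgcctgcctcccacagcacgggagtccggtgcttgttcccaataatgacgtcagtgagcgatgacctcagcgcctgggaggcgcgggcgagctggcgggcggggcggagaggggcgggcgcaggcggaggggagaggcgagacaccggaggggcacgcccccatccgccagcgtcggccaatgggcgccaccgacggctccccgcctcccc

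A half-site match was present in the window of 4 of the 5 genes and absent from that of Btg2. Among all 32851 promoter windows of the table, 7.13% held one. Counted by gene, 8.2% of its 27025 genes had a window with one. Cdkn1a had 2, starting 73 and 51 bases before its start, Ccng1 had 1 at 185 bases, Mdm2 1 at 186 bases and Ei24 1 at 10 bases. The distance for Ccng1 is counted from an annotated start inside the gene, so it includes the 23 bases left out of the printed window. The gene Cdkn1a has another annotated start, inside the gene, and its window held none. A match of letters is a description and shows no binding, and the absence of one says only that these letters are not in the window. The known p53 elements of Mdm2 lie in an intron, outside the window.

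**Figure D1:**
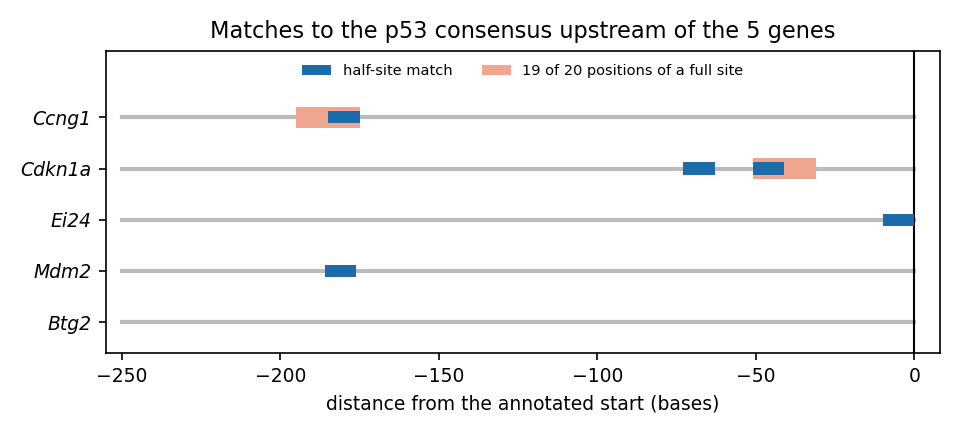
Matches to the p53 consensus in the 250 bases before the annotated start of each gene (x axis, bases from the start; grey lines are the windows). Blue bars are half-site matches and pale bars are stretches that match 19 of 20 positions of 2 adjacent half-sites, which were found for Ccng1 and Cdkn1a.

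For a full element of 2 adjacent half-sites, the closest stretch matched 19 of 20 positions in the windows of Cdkn1a and Ccng1 printed above. Only 25 of the 32851 windows (0.0761%) matched as well or better. The closest stretches of Mdm2 and Ei24 matched 15 positions, which 71.1% of windows reached, and that of Btg2 matched 14, which 97.4% of windows reached. The window at the other annotated start of Cdkn1a also matched 15. The 25 windows belonged to 25 genes, of which 7 were tested on these arrays. Their stretches are shown to compare them, with capitals at the positions that match the consensus and lower case at the one that does not.
Cdkn1a, chr17:29090928-29090947, plus strand: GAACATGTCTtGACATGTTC
Ccng1, chr11:40755462-40755481, minus strand: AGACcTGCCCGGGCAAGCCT
Rps27l, chr9:66946296-66946315, plus strand: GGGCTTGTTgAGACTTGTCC
Sptbn4, chr7:27396234-27396253, minus strand: GAGCTAGCCTAGGCTAGTCT
Calhm2, chr19:47138451-47138470, minus strand: GGGCAAGCCTAGGCAAGaTC
Mthfd1, chr12:76255090-76255109, plus strand: AAACTTGCTCAGACAgGCCC
Bco1, on chromosome 8, was the seventh and also matched 19 positions. Of these 7 genes, 6 had means below 0 and 1 above it, and 3 passed the test: Ccng1, Cdkn1a and Rps27l, all below 0. Over all genes tested, 49.8% of means were below 0, and 12.5% passed, 4.81% below 0. Ccng1 and Cdkn1a are members whose values were known when the search was made. Rps27l, a p53 target that encodes a ribosomal protein S27 relative, read -1.51, -1.40, -0.73 and -0.53 in mice 1 to 4, with a mean of -1.04 ± 0.49 (SD, n = 4; limma adjusted p = 0.0255). It was lost without mouse 1, 2 or 3, at adjusted p up to 0.0730. Its close relative Rps27, which has its own probe, had a mean of -0.16 ± 0.32 (SD, n = 4). Mthfd1, a folate enzyme gene and the member above 0, had a mean of 0.38 ± 0.21 (SD, n = 4; limma adjusted p = 0.0563). Sptbn4, which matched all 20 positions, had a mean of -0.17 ± 0.13 (SD, n = 4), Calhm2 one of -0.21 and Bco1 one of -0.12. This search was made after the values of the 5 genes were known, so these genes are a description and were given no test as a group.

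Mdm2, the gene of the p53 inhibitor, was the member with values on both sides of 0. Its values were -1.05, -1.06, 0.50 and 0.17 for mice 1 to 4. On the arrays of mice 1 and 2 it was among the lowest genes, with 2.28% and 2.08% of genes at or below it. In mice 3 and 4 it stood in the upper part, with 87.5% and 74.2% of genes at or below it. The mean was -0.36 ± 0.81 (SD, n = 4), and the test against 0 gave no call (limma adjusted p = 0.451, 95% interval of the mean -1.09 to 0.38). The interval is wide enough to hold a mean as far below 0 as that of Cdkn1a. Only 92 of the 6057 genes with 4 values had a larger SD.

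Cdkn1a, which encodes p21, kept nearly the same place on every array. Its values were -1.11, -0.98, -0.80 and -0.56 for mice 1 to 4. All 4 mice lay below 0, and near the bottom of their arrays, with 2.00%, 2.44%, 3.57% and 2.74% of genes at or below it. The mean was -0.87 ± 0.24 (SD, n = 4; limma adjusted p = 0.0121), a 1.82-fold difference if the base is 2 and 2.38-fold if the values are natural logarithms. Of the 8384 genes tested, 135 had a lower mean.

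Ccng1, the cyclin G1 gene, lay farthest from 0. Its values were -2.07, -2.06, -1.37 and -0.34 for mice 1 to 4. The first 3 values were among the lowest of their arrays, with 0.436%, 0.322% and 0.930% of genes at or below them, and in mouse 4 the share was 7.01%. The mean was -1.46 ± 0.81 (SD, n = 4; limma adjusted p = 0.0354), a 2.75-fold difference if the base is 2, and 29 of 8384 genes had a lower mean. Its SD was about that of Mdm2, and 93 of 6057 genes had a larger one. Without mouse 4 the mean was -1.83, and in the fits without mouse 1, 2 or 3 it did not pass (limma adjusted p from 0.0834 to 0.103).

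Btg2 was the member above 0. Its values were 0.57, 0.24, 0.59 and 0.71 for mice 1 to 4. Its values did not overlap with those of Cdkn1a, Ccng1 or Ei24, and 92.7%, 80.6%, 89.7% and 95.4% of genes were at or below it. The mean was 0.52 ± 0.20 (SD, n = 4; limma adjusted p = 0.0258), a 1.44-fold difference if the base is 2. In the fits without mouse 1, 3 or 4 it did not pass, with limma adjusted p from 0.0834 to 0.0859.

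Ei24, the gene of the endoplasmic reticulum protein, had the smallest size of the members that passed. Its values were -0.74, -0.44, -0.31 and -0.25 for mice 1 to 4. Mouse 1 was the lowest, and the other 3 lay within a narrow range. The mean was -0.43 ± 0.22 (SD, n = 4; limma adjusted p = 0.0439), a 1.35-fold difference if the base is 2. The call was lost whichever mouse was left out, at limma adjusted p from 0.0838 to 0.0981, and it was lost at 0.0524 without centring.

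**Figure D2:**
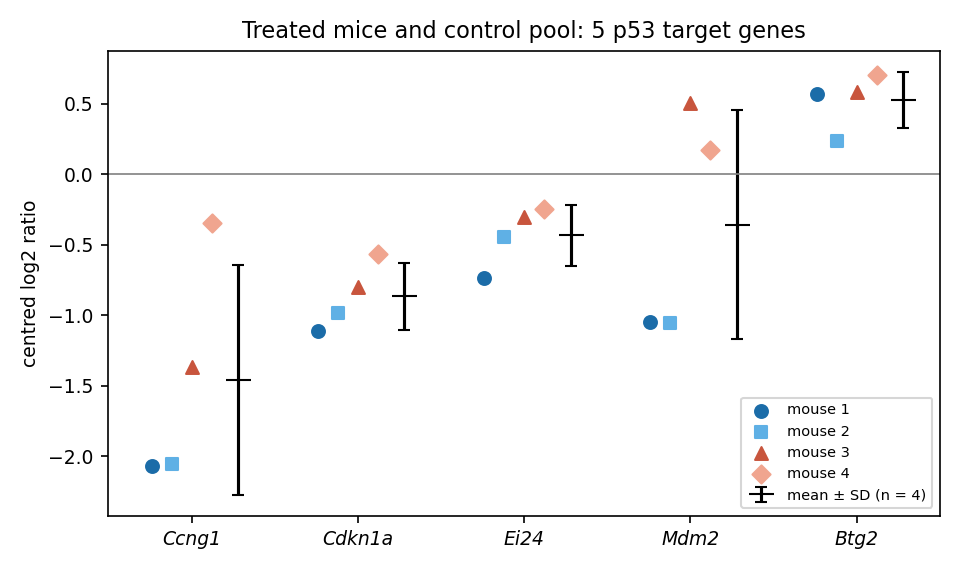
Centred log2 ratio (y axis) of the 5 genes (x axis) in mice 1 to 4, with the mean and SD of the 4 mice as bars. Ccng1, Cdkn1a and Ei24 lie below 0 in every mouse, Btg2 lies above 0 in every mouse, and Mdm2 lies on both sides, from -1.06 to 0.50.

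Of the 5 genes, 4 passed the test, 3 below and 1 above 0. Among all genes tested 12.5% passed, 4.81% below 0 and 7.69% above. The 5 genes were chosen with earlier results of these data known, so their count is a description of these genes. On the arrays of mice 3 and 4 the members were split 3 below and 2 above 0, and on those of mice 1 and 2 they were split 4 and 1.

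**Figure D3:**
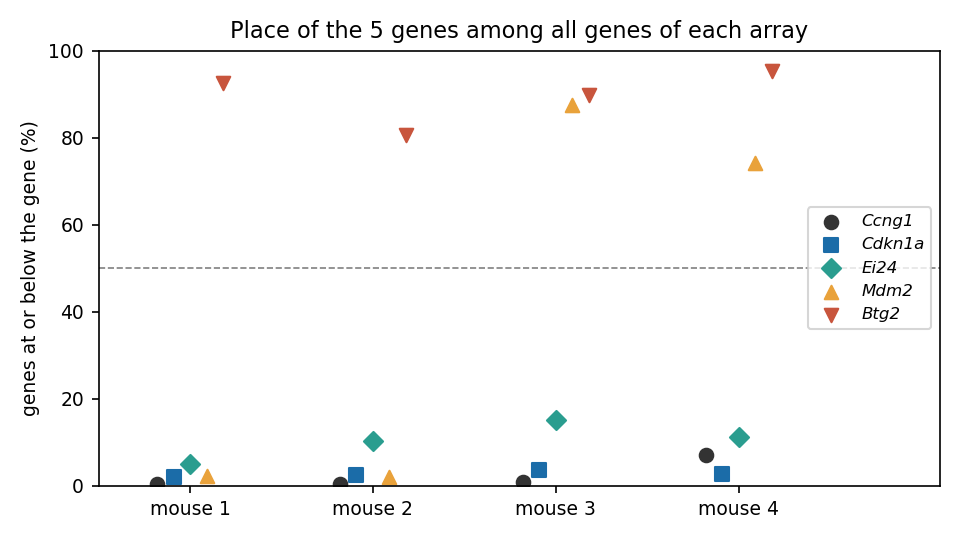
Share of all genes of an array (y axis, percent) that lie at or below each of the 5 genes (points), for mice 1 to 4 (x axis); the dashed line is the middle of the array. Cdkn1a lies between 2.00% and 3.57% on every array, whereas Mdm2 moves from 2.28% and 2.08% in mice 1 and 2 to 87.5% and 74.2% in mice 3 and 4.

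By mean, the order from the lowest was Ccng1, Cdkn1a, Ei24, Mdm2 and Btg2. Differences between members were taken within each array, where the array's scale and the pool are shared, and 10 pairs are possible. An exact two-sided sign test over 4 mice cannot go below p = 0.125, so the pairs are given as values. Cdkn1a was below Ei24 in all 4 mice, by a difference between -0.54 and -0.32 (mean -0.43 ± 0.10, SD, n = 4), the steadiest of the 10. Cdkn1a was below Btg2 in all 4 mice, with a mean difference of -1.39 ± 0.21 (SD, n = 4). Btg2 was above Ei24 in all 4, by 0.96 ± 0.26 (SD, n = 4). Ccng1 and Cdkn1a were not ordered beyond their spread: Ccng1 was the lower in mice 1 to 3, but in mouse 4 Cdkn1a was the lower by 0.22, a Cdkn1a minus Ccng1 difference of -0.22. Ei24 and Mdm2 were not ordered either, Mdm2 being the lower in mice 1 and 2 and the higher in mice 3 and 4. Mdm2 was below Btg2 in all 4 mice, but in mouse 3 the difference was only -0.08.

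The arrays of mice 1 and 2 resembled each other (Pearson r = 0.723 over 6057 genes), and so did those of mice 3 and 4 (r = 0.861), while r across these pairs was between 0.436 and 0.560. These are correlations across genes, which share arrays and the pool. The sign pattern of Mdm2, below 0 in mice 1 and 2 and above it in mice 3 and 4, was shared by 531 of the 6057 genes (8.77%). With the 2 pairs as random blocks, a setting chosen after the data were seen, Cdkn1a passed (limma adjusted p = 0.0237), and Btg2 (0.0562), Ccng1 (0.0596) and Ei24 (0.0834) did not.

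The spread of the arrays differed as well. The median absolute deviation over spots was 0.254, 0.255, 0.292 and 0.190 for mice 1 to 4, so the array of mouse 4 was the narrowest. With each array scaled to the mean of these, Cdkn1a read -1.09, -0.96, -0.68 and -0.73 and Ccng1 read -2.02, -1.995, -1.16 and -0.45. Cdkn1a then had an SD of 0.19 in place of 0.24, and mouse 4 was no longer its nearest to 0.

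Marker genes of several tissues and cell types also differed between the mice. Beside the counts below, 12.5% of all genes tested passed, 4.81% below 0 and 7.69% above. Of 11 tested genes of striated muscle, 5 passed below 0 and none above. The skeletal muscle genes Tnnt3 and Ckm, named after their values were seen, were lowest in mice 1 and 2 and nearer to 0 in mice 3 and 4, as Ccng1 and Mdm2 were. Tnnt3, of the troponin complex, read -5.13, -4.52, 0.10 and -1.56, and Ckm, muscle creatine kinase, read -3.02, -1.82, -0.30 and -0.23. Neither of them passed (limma adjusted p = 0.0965 and 0.125). Of the 5 muscle genes that passed, Cox7a1, Cox8b and Nppb were lowest in mouse 3 and nearest to 0 in mouse 2. Myl1 was lowest in mouse 1, and Tnnc2, without a value in mouse 3, was lowest in mouse 2. Over the whole muscle list the medians were -2.87, -0.65, -1.93 and -1.56, and there mouse 2 was nearest to 0, unlike in Ccng1. Of 6 fat cell genes, 4 passed below 0, with list medians of -1.45, -0.12, -2.19 and -1.32. Of 3 neutrophil genes, 2 passed below 0, and the medians were -1.50, -1.50, -2.99 and -2.43. Of 5 macrophage genes, 2 passed above 0 and 1 below, with medians of -0.61, -0.25, 0.33 and 0.41. Among them the scavenger receptor gene Marco had the sign pattern of Mdm2, at -1.23, -1.47, 0.33 and 0.41, and the other 4 did not: Apoe was above 0 and Plin2 below 0 in all 4 mice, Mrc1 was above 0 in the 3 mice with a value, and Cd68 lay on both sides. The pattern was not particular to macrophage genes. The fibroblast gene Col3a1 (-1.021, -1.345, 0.065 and 0.087) and the alveolar type II gene Sftpd (-0.142, -0.192, 0.676 and 0.427) had it too. Of 4 tested genes each of fibroblasts, lymphocytes, and club and ciliated cells, none passed. Of 5 alveolar type II genes, 1 passed above 0, and of 6 type I genes, 2 passed above 0 and 1 below. All 5 tested endothelial genes passed above 0, and the list median was between 0.90 and 1.30 on each array. The neutrophil genes S100a8 and S100a9 were farthest below 0 in mice 3 and 4. The third, Mmp8, had a mean of 0.19 (n = 3) and no value in mouse 4. The part of these tissues in the values of the 5 p53 target genes was not tested.

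The wider p53 target lists held 60 genes, of which 47 had a probe and 34 were tested. With the 5 members, 2 passed above 0 and 3 below, and the median of the 34 means was -0.03, beside 0.00 (0.0015) for all genes. Apart from the members, 1 of 29 tested targets passed (3.45%, beside 12.5% of all genes), and 10 of 29 (34.5%) had an unadjusted p under 0.05, as did 31.8% of all genes. That gene was Cop1, which encodes another ubiquitin ligase of p53. It read 0.52, 0.45, 1.28 and 0.79 in mice 1 to 4, above 0 in each, with a mean of 0.76 ± 0.38 (SD, n = 4; limma adjusted p = 0.0314). Cop1 was lost without mouse 1, 3 or 4, at adjusted p up to 0.0941, and with the mouse pairs as blocks. Cop1 and Mdm2 both mark p53 for destruction, and in mice 1 and 2 they lay on opposite sides of 0.

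Of 6 tested targets that arrest the cell cycle, 2 passed below 0 (Cdkn1a and Ccng1) and 1 above (Btg2), all of them members. This is 50%, beside 12.5% of all genes, but the members were chosen with earlier results of these data known. The other 3 tested genes of this list, Gadd45a, Plk2 and Zmat3, did not pass. Gadd45a, a stress sensor of the same response, read 0.52, 0.08, 1.35 and 1.20, all above 0, with a mean of 0.79 ± 0.59 (SD, n = 4) that missed the threshold (limma adjusted p = 0.0710). Plk2, a polo-like kinase gene, had a mean of 0.28 ± 0.10 (SD, n = 3; adjusted p = 0.0965 by limma). Of 6 tested targets that feed back on p53, 1 passed below 0 (Ccng1, which is in both lists) and 1 above (Cop1). This is 33.3%, beside 12.5% of all genes. Trp53inp1, which promotes p53 phosphorylation, had a mean of 0.42 ± 0.31 (SD, n = 4; limma adjusted p = 0.0805). Rchy1, the gene of a further p53 ubiquitin ligase also called Pirh2, read -0.42, -0.01, 0.70 and 0.71, with the signs of Mdm2.

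Of 11 tested apoptosis targets, 1 passed below 0 (Ei24) and 0 above (9.09%, beside 12.5% of all genes). Of the 11 means 9 were below 0, as were 49.8% of those of all genes. An unadjusted p under 0.05 was found for 5 (45.5%, beside 31.8% of all genes). Siva1, a proapoptotic gene, lay farthest from 0. It read -0.91, -1.24, -0.29 and -0.39, and just missed the threshold (-0.70 ± 0.45, SD, n = 4; limma adjusted p = 0.0513). It passed with the arrays scaled (limma adjusted p = 0.0429), with only genes measured in all 4 mice (0.0454) and with 1 probe per gene (0.0499). Bbc3, which encodes Puma, a BH3-only killer protein, had a mean of -0.35 ± 0.29 (SD, n = 4; limma adjusted p = 0.115), and Tnfrsf1a, a death receptor gene, one of -0.27 ± 0.18 (SD, n = 4; limma adjusted p = 0.101). Above 0 lay Pmaip1, which encodes Noxa, at 0.17 ± 0.12 (SD, n = 4), and the autophagy gene Dram1 at 0.25 ± 0.06 (SD, n = 4), neither of which passed (limma adjusted p = 0.169 and 0.0539).

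None of the 4 tested targets of metabolism, 6 of DNA repair and 2 that are secreted passed limma, beside 12.5% of all genes. Of them 1, 1 and 0 had an unadjusted p under 0.05 (25%, 16.7% and 0%, beside 31.8% of all genes). Pcna, the sliding clamp of DNA replication and repair, was spread widest. It read -0.26, -0.57, 1.68 and 1.12, below 0 in mice 1 and 2 and above it in mice 3 and 4 (mean 0.49 ± 1.08, SD, n = 4; limma adjusted p = 0.432). Ephx1, an epoxide hydrolase gene, read -0.58, -1.10, 0.28 and 0.11. The repair gene Fancc had a mean of 0.22 ± 0.16 (SD, n = 4) and Tsc2, which restrains growth signalling, one of 0.34 ± 0.01 (SD, n = 3; adjusted p = 0.0537 by limma). The secreted Igfbp3 and Tgfa had means of -0.08 and 0.03.

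Apart from the 5 members, 5 of 21 tested targets with 4 values had the sign pattern of Mdm2, beside 8.77% of all genes. They were Rchy1, Pcna, Ephx1, Zmat3 and Dcxr. Rchy1 in mouse 2 (-0.01), Zmat3 in mouse 4 (0.01) and Dcxr in mouse 4 (0.06) were close to 0, so that their signs there are uncertain. With the members, 26 tested targets had 4 values. Of the 26, 6 were below 0 in every mouse, beside 21.6% of all genes: Cdkn1a, Ccng1, Ei24, Bbc3, Siva1 and Tnfrsf1a. Above 0 in every mouse were 7, beside 24.8% of all genes: Btg2, Gadd45a, Cop1, Trp53inp1, Pmaip1, Dram1 and Fancc. Both counts are close to the share over all genes. The sign pattern was looked for after the values of Mdm2 were seen, and the counts were given no test.

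**Figure D4:**
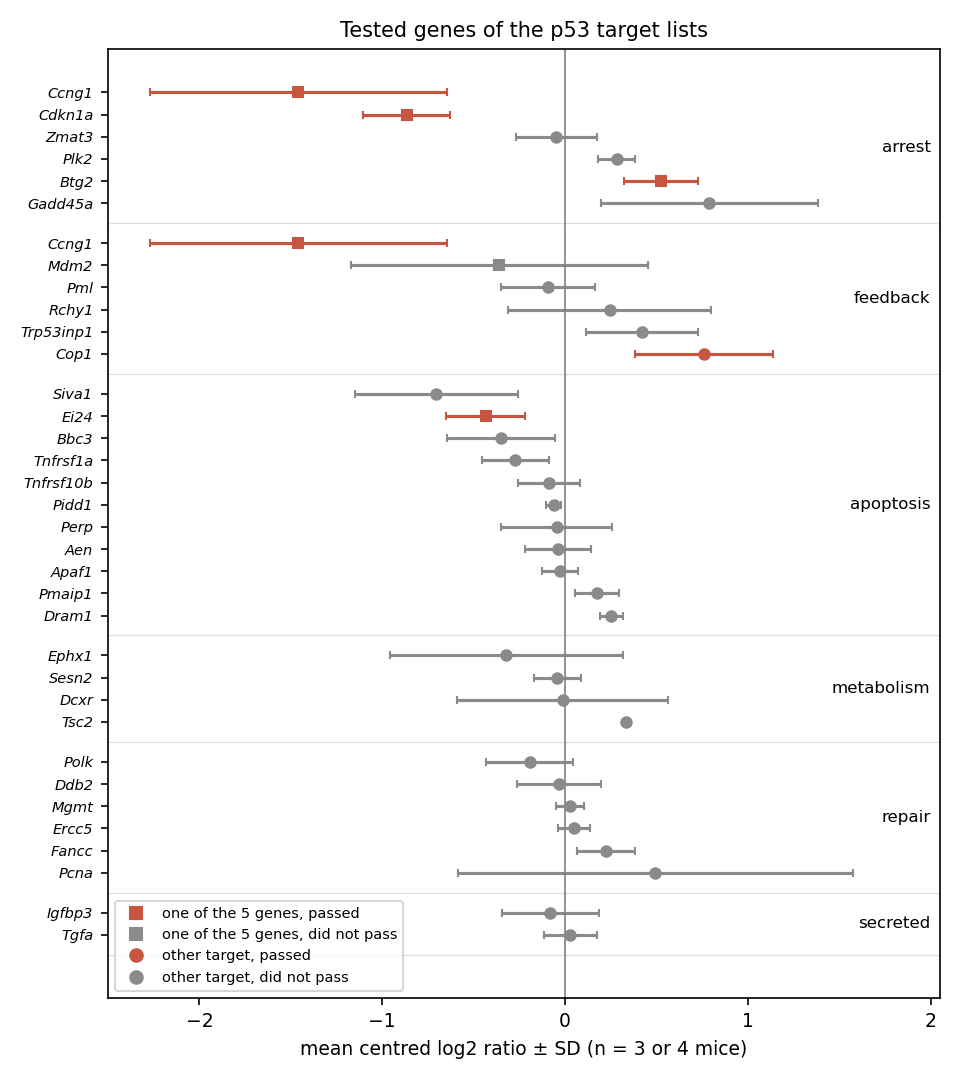
Mean centred log2 ratio with SD (x axis) of the tested genes of the p53 target lists (y axis), grouped by role; squares are the 5 genes of the main set, red marks genes that passed limma and grey those that did not. Ccng1 stands in the lists of arrest and of feedback, and beside the 5 genes only Cop1 passed.

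The promoter windows of 23 of the 29 further tested targets were in the sequence table, and 6 of the 23 (26.1%, beside 8.2% of all 27025 genes of the table) held a p53 half-site match: Gadd45a, Rchy1, Pml, Aen, Siva1 and Polk. Of these 6 genes, 4 had means below 0 and 2 above, and 0 passed limma (only Gadd45a and Siva1 were near the threshold, at 0.0710 and 0.0513).

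Among p53 and its regulators, 9 of 20 genes were tested, and 2 passed above 0 and 0 below. This is 22.2%, beside 12.5% of all genes, of which 7.69% passed above 0 and 4.81% below. The deacetylase gene Sirt1 read 1.56, 1.41, 1.49 and 0.40, with a mean of 1.21 ± 0.55 (SD, n = 4; limma adjusted p = 0.0234). The SUMO ligase gene Pias1 read 1.12, 0.97, 0.21 and 0.48, with a mean of 0.69 ± 0.42 (SD, n = 4; limma adjusted p = 0.0482). Pias1 passed in 5 of 12 alternative settings and Sirt1 in 8, and without mouse 1, 2 or 3 neither passed. Usp10 and Trp53bp1, which act on p53 stability and on break repair, did not pass, with a mean of 0.20 ± 0.13 (SD, n = 4) for Usp10 and of 0.27 ± 0.09 (SD, n = 3) for Trp53bp1. The gene of p53 itself, Trp53, had no probe listed under its symbol alone and was not analysed here.

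Relatives and partners of the 5 genes gave 0 calls by limma among 13 tested genes, beside 12.5% of all genes. An unadjusted p under 0.05 was found for 2 (15.4%, beside 31.8% of all genes). The relative of Btg2 farthest from 0 was Btg3, at 0.55, 0.28, 1.43 and 0.76 in mice 1 to 4, above 0 in each as Btg2 was (0.75 ± 0.49, SD, n = 4; limma adjusted p = 0.0530). Btg3 passed with the arrays scaled (limma adjusted p = 0.0392) and with only genes measured in all 4 mice (0.0469). Btg1 had a mean of 0.21 ± 0.24 (SD, n = 4; limma adjusted p = 0.216). Ppp2r5a, a subunit of the phosphatase that cyclin G1 binds, had a mean of 0.55 ± 0.48 (SD, n = 4; limma adjusted p = 0.105).

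Btg2 is also an immediate early gene, and 11 of the 13 tested genes of that list had means above 0, beside 4212 of all 8384 genes. Of the 13, 2 passed above 0 and 0 below (15.4%, beside 12.5% of all genes), and 8 (61.5%) had an unadjusted p under 0.05, beside 31.8% of all genes. The list median was 0.20, beside 0.00 (0.0015) for all genes. Fos, Fosb and Jun had too few values to be tested. Egr1 and Nr4a1 had means near 0, of 0.02 and 0.05 (limma adjusted p = 0.907 and 0.657). Dusp1, a phosphatase gene that curbs MAP kinases, read 1.62, 1.00, 1.25 and 0.73, with a mean of 1.15 ± 0.38 (SD, n = 4; limma adjusted p = 0.0129). The transcription factor gene Klf4 read 1.61, 1.08, 1.13 and 0.75, with a mean of 1.14 ± 0.36 (SD, n = 4; limma adjusted p = 0.0121). Both passed in all 12 alternative settings. Atf3, a stress transcription factor gene, had a mean of 0.53 ± 0.34, close to that of Btg2 (SD, n = 4), and missed the threshold (limma adjusted p = 0.0573). Below 0 lay Socs3 at -0.68 ± 0.58 and Junb at -0.61 ± 0.43 (SD, n = 4), which did not pass (limma adjusted p = 0.0939 and 0.0663).

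The genes with the values most like each member were found as the smallest root mean square difference over the 4 mice, among 6057 genes with 4 values. For Cdkn1a they were the chemokine gene Cxcl14, at a difference of 0.0976, then the mitochondrial ribosomal protein gene Mrpl54 (0.130) and the lipocalin gene Apod (0.130). Cxcl14 read -1.001, -1.09, -0.82 and -0.69. For Ccng1 they were farther away: Cox5a, a cytochrome c oxidase subunit, at 0.331, Gadd45g at 0.407 and the growth factor gene Igf1 at 0.455. Gadd45g, a relative of Gadd45a, read -1.97, -1.64, -0.74 and -0.63, on the other side of 0 from Gadd45a. For Mdm2 the nearest were the mitochondrial genes Tamm41 (0.0521) and Coq7 (0.145) and the interferon-induced gene Rtp4 (0.157), and Tamm41 read -0.97, -1.06, 0.46 and 0.22. For Btg2 they were Cd47, which encodes a cell surface signal against phagocytosis (0.0735), the matrix proteoglycan gene Agrn (0.0736) and Mtx2 (0.0782), and for Ei24 they were 4930431P19Rik (0.0518), Zbtb8os (0.0591) and Sncg (0.0642). Many genes lie near 0, so a small difference is easier to reach for Btg2 and Ei24 than for Ccng1.

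**Figure D5:**
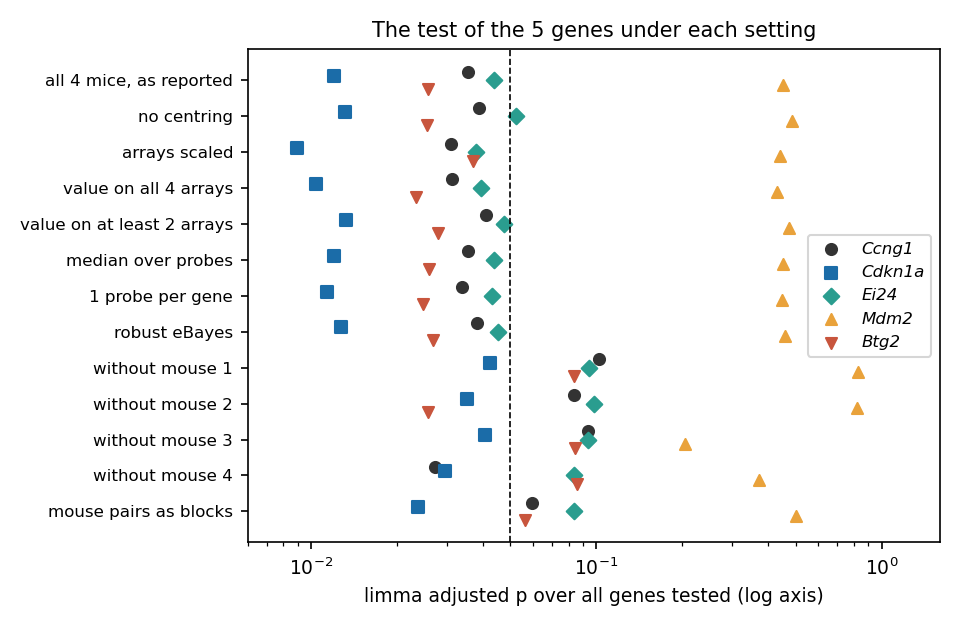
Adjusted p of the limma test over all genes (x axis, log axis; the dashed line is the threshold of 0.05) for each of the 5 genes under the reported setting and 12 alternatives (y axis). Cdkn1a stays left of the line in all 12, between 0.00896 and 0.0425, and Mdm2 stays right of it in all 12.

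Over the 12 alternative settings Cdkn1a passed limma in each, at adjusted p between 0.00896 and 0.0425, and Mdm2 in none, at adjusted p between 0.204 and 0.824. The mean of Mdm2 ranged from -0.65 without mouse 3 to -0.13 without mouse 2. Ccng1 and Btg2 each passed in 8 of the 12 settings and Ei24 in 6. The settings of the minimum of values, the probe rule and robust eBayes left the values of these 1-probe genes unchanged. In the 4 fits without 1 mouse, Cdkn1a passed in 4, Ccng1 and Btg2 in 1 each and Ei24 in 0. None of the 5 means changed its side of 0 in these settings. For Cdkn1a, Ccng1, Btg2 and Ei24 leaving out a mouse could not change it, because all 4 values lay on the same side.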

How the data were processed

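The authors deposited 1 log ratio per spot and array, taken here as log2 from the range of the values; scanner, dyes, normalization, log base and direction were not given in the sources used here. All columns of values belonged to the 4 samples (0 others). Of 17280 spots, 14722 had 1 gene symbol in the platform annotation, 1 had several and 2557 were not listed. Gene IDs of 14445 matched RefSeq, which changed 0 symbols. Each array was centred on its median, and values of the probes of a gene were averaged on each array. Genes needed values on at least 3 of 4 arrays, which left 8384. Means were tested against 0 with limma 3.58.1 in R 4.3.3 (lmFit, eBayes, two-sided, Benjamini-Hochberg over all genes, threshold 0.05); the code was tested on simulated data. Each mouse was 1 replicate.

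The 5 genes, the lists and the marker genes were chosen with earlier results of these data known. Named from the lists were genes that passed and up to 2 more a list with the largest mean, and the 3 genes nearest to each member; others were named after their values were seen. Windows were searched for the p53 half-site and for 2 adjacent half-sites. Alternatives were centring, array scale, the minimum of values, the probe rule, robust eBayes, leaving out each mouse, and, added after seeing the data, mouse pairs as random blocks. Fits without a mouse needed values on the 3 others. The number of arrays limits the precision.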

Additional observations from a re-analysis of the deposited data

Results flagged for a closer look

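In 50 named genes with 4 values, 1 mouse stood far from the other 3 in 3 genes, by the gap to the nearest mouse over the range (Dixon's test at its critical value); chance gives this in about 1 of 20 groups. Sirt1 read 0.402 in mouse 4 against 1.41 to 1.56 in the others. Ppp2r5a read 1.26 in mouse 3 against 0.24 to 0.35. Fancc read 0.462 in mouse 3 against 0.12 to 0.18. None of the 5 p53 target genes of the main set met this criterion.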

How the results depend on the processing

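The 1048 genes past limma (645 above and 403 below 0) became 277 to 537 without 1 mouse (193 to 386 above, 78 to 151 below), where 3 arrays were fitted, and 402 (286 above, 116 below) with mouse pairs as random blocks. The p53 target lists, with 2 calls above and 3 below 0, had 0 to 3 above and 1 to 2 below without 1 mouse, and 0 and 1 with the blocks. Without 1 mouse the means ranged from 0.46 to 0.62 for Btg2, from -1.83 to -1.26 for Ccng1 and from -0.50 to -0.33 for Ei24. With the blocks the means of Btg2 (0.52), Ccng1 (-1.46) and Ei24 (-0.43) did not change but no longer passed, and without centring Ei24 had -0.42 and no longer passed. Of 588 fits of the 51 other named genes, 520 kept side and call, 51 lost the call, 12 gained it and 5 changed side. Dcxr turned to 5e-04 without centring and ranged from -0.27 to 0.17 without 1 mouse, Zmat3 from -0.14 to 0.033 and Tgfa from -0.024 to 0.093, all near 0. No paired analysis was possible because the series has 1 group. Signal over background was not part of the table, so dim spots could not be judged.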
